A study of Mus musculus with 15 samples.

Results

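H3K4me3 ChIP–seq peaks of WT mBA cells treated with 2-hydroxyglutarate (WT + 2HG) were compared with those of untreated WT cells. The peaks of chromosomes 1 to 19 in these 2 lists were taken, 13668 in WT + 2HG and 11988 in WT, which makes 25656 of the 41519 peaks of the 3 lists of the series. Peaks that overlapped by at least 1 bp were paired. A WT + 2HG peak with no WT partner is called gained, a WT peak with no WT + 2HG partner is called lost, and all others are called kept. The comparison asks how the promoter mark differed between treated and untreated cells of the same genotype.

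Both groups were wild type, and they used 8 of the 15 samples of the series. mBA cells are brown preadipocytes from the brown fat of newborn mice, which the study immortalized with SV40 large T antigen and differentiated, while the sample labels call them primary cells. The WT + 2HG cells received octyl d-2HG, a cell-permeable form of the metabolite, in DMSO. The labels give no treatment for the WT cells, so whether they received DMSO is not stated in the sources used here. Both grew in high-glucose DMEM without pyruvate. The third group of the series, CLPP-KO, lacks a mitochondrial matrix protease, was supplemented with uridine and was not treated. Its values are set beside those of named genes, and it was compared with the same WT list.

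Trimethylation of histone H3 at lysine 4 marks the nucleosomes around the start sites of active genes and, beside H3K27me3, of many silent developmental genes. It is written by SET1 and MLL complexes, which are drawn to unmethylated CpG-rich DNA, and is removed by demethylases of the KDM5 family. These demethylases, the TET enzymes and prolyl hydroxylases all use 2-oxoglutarate, and 2HG, which resembles it, can compete with it. In adipocytes, wide H3K4me3 domains lie over the genes of the regulators that set cell identity.

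The summit sequences of leading peaks are shown first, so that their CpG content can be seen beside their class. Each is the 200 bp around the peak's summit, on the plus strand of GRCm39, with every CG in capitals. Kcnc4 and Neurod2 led the gained genes, Foxf2 and Insig2 rose most among kept peaks, and Pparg is a gene the study names.
Kcnc4, chr3:107366696-107366895: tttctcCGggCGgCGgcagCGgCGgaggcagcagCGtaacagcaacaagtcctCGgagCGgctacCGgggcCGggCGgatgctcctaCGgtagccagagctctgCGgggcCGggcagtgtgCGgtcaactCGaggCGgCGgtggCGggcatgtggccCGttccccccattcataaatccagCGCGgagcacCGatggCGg
Neurod2, chr11:98219066-98219265: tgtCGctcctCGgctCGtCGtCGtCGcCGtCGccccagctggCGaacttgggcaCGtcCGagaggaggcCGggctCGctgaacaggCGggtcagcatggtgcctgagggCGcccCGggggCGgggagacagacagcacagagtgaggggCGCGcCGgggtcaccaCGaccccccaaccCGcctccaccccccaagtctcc
Foxf2, chr13:31810101-31810300: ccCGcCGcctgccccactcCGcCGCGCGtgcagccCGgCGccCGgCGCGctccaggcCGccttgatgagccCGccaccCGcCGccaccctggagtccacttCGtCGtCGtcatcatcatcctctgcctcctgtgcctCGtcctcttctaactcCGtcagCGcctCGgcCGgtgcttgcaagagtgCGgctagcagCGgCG
Insig2, chr1:121255327-121255526: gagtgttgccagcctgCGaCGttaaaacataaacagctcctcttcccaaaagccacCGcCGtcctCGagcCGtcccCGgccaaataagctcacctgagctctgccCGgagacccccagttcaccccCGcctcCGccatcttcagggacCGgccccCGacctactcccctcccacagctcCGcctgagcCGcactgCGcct
Pparg, chr6:115337999-115338198: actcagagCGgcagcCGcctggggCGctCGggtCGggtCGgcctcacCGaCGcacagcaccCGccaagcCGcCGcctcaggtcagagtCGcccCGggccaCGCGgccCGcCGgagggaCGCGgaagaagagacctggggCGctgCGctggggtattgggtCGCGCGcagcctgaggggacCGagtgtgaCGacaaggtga
These 5 windows hold 24, 22, 26, 15 and 26 CG, respectively. The 2 pairs that fell most were those at Pigs and at Gdf9 and Uqcrq, and an example of a lost peak lay at Bckdha and Exosc5.
Pigs, chr11:78219361-78219560: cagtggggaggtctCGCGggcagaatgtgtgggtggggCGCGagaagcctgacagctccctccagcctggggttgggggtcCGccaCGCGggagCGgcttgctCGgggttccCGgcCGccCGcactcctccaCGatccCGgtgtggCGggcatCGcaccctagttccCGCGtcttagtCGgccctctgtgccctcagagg
Gdf9 and Uqcrq, chr11:53321351-53321550: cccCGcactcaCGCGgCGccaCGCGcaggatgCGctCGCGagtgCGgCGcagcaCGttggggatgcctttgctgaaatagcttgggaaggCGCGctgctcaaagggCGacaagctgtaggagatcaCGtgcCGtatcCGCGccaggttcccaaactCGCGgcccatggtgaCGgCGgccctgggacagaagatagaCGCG
Bckdha and Exosc5, chr7:25358651-25358850: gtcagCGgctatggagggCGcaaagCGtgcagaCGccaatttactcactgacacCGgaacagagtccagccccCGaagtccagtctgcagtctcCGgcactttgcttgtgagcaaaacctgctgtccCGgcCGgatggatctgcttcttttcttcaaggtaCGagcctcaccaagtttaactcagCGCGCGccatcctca
The windows of the pairs that fell hold 19 and 25 CG, within the range of those that rose. The window of the lost peak holds 13, and the CpG content of each whole class is given further on.

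Each condition was deposited as 1 peak list called on its 4 ChIP samples and 1 input together. No spread between replicates can therefore be given, no test between the conditions is possible, and every difference below is a difference between 2 lists. The lists hold no read counts, so the depth of each sample cannot be read from them. Each peak carries an area under the curve of its −log10 p, which is not scaled between lists, and it was used as a percentile: the share of a list's peaks with an area no larger. The median summit −log10 p was 10.1 in WT and 14.6 in WT + 2HG. The whole WT + 2HG list was thus called with stronger statistics. Depth, enrichment and the treatment cannot be told apart as sources of this.

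The promoter marks only partly bore out the label of mature brown adipocytes. Among 10 brown adipocyte markers, Prdm16, a determinant of brown fat fate, stood at percentile 93.4 in WT and 99.7 in WT + 2HG. Zic1 stood at 27.4 and 43.7. Cidea, a lipid droplet protein, had a peak in WT + 2HG but not in WT. Ucp1, Ppargc1a, Dio2, Ebf2, Elovl3, Cox8b and Adrb3 had no promoter peak in either list. Of 10 markers of any adipocyte, 4 had a WT peak and 7 a WT + 2HG peak, and Adipoq, Fabp4 and Cidec had none in either. Of 6 markers of macrophages, none had a WT peak and Cd14 had a WT + 2HG peak, at 16.4. Of 6 of endothelium, Kdr stood at 45.8 and 44.9. Of 6 of skeletal muscle, Ckm stood at 21.4 and 48.5, and Des had a peak in WT + 2HG, at 5.75. Of 4 of neurons or glia on these chromosomes, Tubb3 stood at 4.66 and 27.7, and Sox10 had a peak in WT + 2HG, at 4.41. The part of other cell types in the gained peaks was not tested. Ptprc, Pecam1, Cdh5, Myod1 and Rbfox3 had none in either list. A peak shows that the mark was called there, not that the gene was transcribed.

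Of the WT + 2HG peaks, 2495 were gained, 18.3% of the list, whereas 301 WT peaks were lost, 2.51% of theirs. The treated list thus added far more peaks than it dropped. Gained peaks covered 1.27 Mb and lost peaks 0.136 Mb. Both classes were weak. Among gained peaks the median percentile was 11.5 (interquartile range 5.42 to 19.1), 2179 lay at or below percentile 25 and only 6 above the list's median. No lost peak stood above percentile 23.0. Of the 2733 weakest WT + 2HG peaks, up to percentile 20, 1931 were gained (70.7%), and of the 2734 strongest none was. When each list was limited to its 11988 largest peaks, 1171 were gained and 610 lost. In lists of equal size these counts can differ only where a peak overlaps several of the other list. This difference therefore does not show an excess of new sites.

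**Figure D1:**
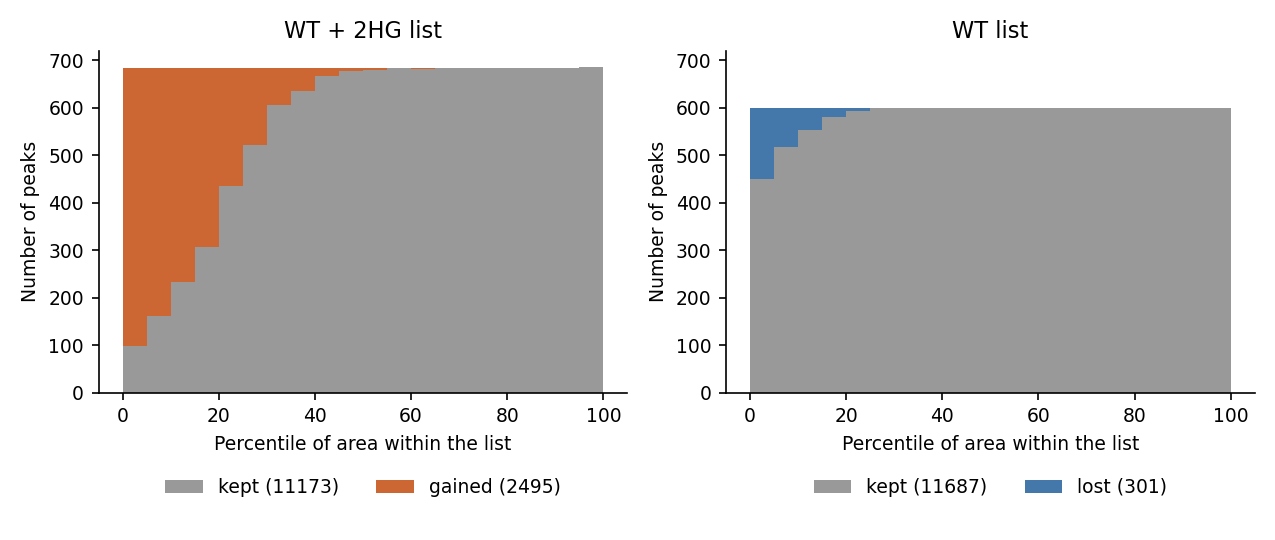
Number of peaks (y axis) by percentile of area within the list (x axis, in steps of 5 percentile points) for the WT + 2HG list (left) and the WT list (right). Gained peaks (orange, 2495) and lost peaks (blue, 301) are stacked on kept peaks (grey), and both sit at the weak end of their lists.

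Gained peaks were narrow and lay on their own. Their median width was 454 bp against 995 bp for kept WT + 2HG peaks, and that of lost peaks was 422 bp. The nearest WT peak was a median 22381 bp away from a gained peak, and 421 gained peaks (16.9%) had one within 1000 bp. Lost peaks lay a median 11412 bp from a WT + 2HG peak, and 98 of 301 (32.6%) had one within 1000 bp. The CpG density in the 500 bp around the summit was a median 6.4 per 100 bp in gained peaks, 3.6 in lost peaks and 9.0 in kept WT + 2HG peaks. Windows resembling a CpG island, with at least 50% GC and an observed-to-expected CpG ratio of at least 0.6, made up 62.8% of gained peaks (95% Wilson interval 60.9 to 64.6%) and 32.2% of lost peaks (27.2 to 37.7%). Among kept WT + 2HG peaks the share was 89.8% (89.2 to 90.3%). Intervals here and below cover counting error only.

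Most gained peaks were at promoters, here the 2000 bp on either side of an annotated start site. The share was 83.3% (95% Wilson interval 81.8 to 84.7%), below the 98.4% of kept WT + 2HG peaks and close to the 78.4% of lost peaks (73.4 to 82.7%). Of the 2495 gained peaks, 1143 lay at a protein-coding promoter of a gene with no WT promoter peak. A further 636 lay at a coding gene that already had one, as a second peak of that promoter or at another start site. Noncoding promoters alone held 300, and 104, 193 and 119 had their summit in an exon, in an intron and between genes. At the level of genes, 1138 of 9705 protein-coding genes without a WT promoter peak had one in WT + 2HG (11.7%). Only 99 of the 10916 with a WT promoter peak had none in WT + 2HG (0.907%).

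The highest ranked gained peak lay at Kcnc4, which encodes a voltage-gated potassium channel (chr3:107365568-107367557, minus strand), with its summit in an exon 80 bp inside the gene. It was 1990 bp wide, at percentile 61.0 in WT + 2HG and, 1573 bp wide, at 56.8 in CLPP-KO. Neurod2, a neuronal basic helix–loop–helix factor (chr11:98218310-98219798), stood at 56.8 in WT + 2HG and 48.1 in CLPP-KO. Gpr25, an orphan G protein-coupled receptor, stood at 54.1 and 63.4, and the uncharacterized gene 2810459M11Rik at 50.5 and 37.7. These 4 genes had no WT peak and had one in both other lists.

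The other 6 of the leading 10 ranked between 44.6 and 50.3 in WT + 2HG. Sp9, a zinc-finger factor, and Gbx2, a homeobox factor, both of neural development, stood at 50.3 and 45.7. Hrh3, the histamine H3 receptor, stood at 48.8. The remaining 3 were Nucb1, a calcium-binding Golgi protein, at 45.4, Pip5k1b, a phosphoinositide kinase, at 44.7, and Adamts15, an extracellular metalloprotease, at 44.6. All 10 had a CLPP-KO peak, as did 962 of the 1138 gained genes. WT + 2HG and CLPP-KO are both set against the same WT list, so this count is not independent evidence for either. Of the 10, Nucb1 alone had a CpG-poor summit, with 3.2 CpG per 100 bp against 8.6 to 14.6 at the others.

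The leading lost peaks lay at genes of varied function. Glmp, a lysosomal membrane glycoprotein, had a 1030 bp WT peak at percentile 22.8. Bckdha, a subunit of the branched-chain keto acid dehydrogenase, and Exosc5, of the RNA exosome, shared a lost peak at 22.5 (chr7:25358528-25358960). Slc25a44, the mitochondrial carrier of branched-chain amino acids, lost a peak at 18.4. Chat and Slc18a3, the nested genes for choline acetyltransferase and the vesicular acetylcholine transporter, lost one at 21.8. The other 6 were Ticam2, Traip, Cpxm2, Psmc4, Xaf1 and Shisal2a, at 20.3 down to 15.8. Of these 10 lost peaks, 8 overlapped a CLPP-KO peak, at percentiles from 3.8 (Bckdha) to 20.8 (Slc25a44). Cpxm2 and Shisal2a had none there.

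Where a peak was kept, it was mostly wider after treatment. Of 10354 pairs in which 1 WT peak met 1 WT + 2HG peak, 7285 were wider in WT + 2HG (70.4%, 95% Wilson interval 69.5 to 71.2%), 3040 narrower and 29 equal. The median width was 856 bp in WT and 972 bp in WT + 2HG, and the median ratio 1.09 (95% interval of the median 1.09 to 1.10, interquartile range 0.980 to 1.28). A ratio of at least 1.5 was found at 1324 pairs (12.8%), and WT was at least 1.5 times wider at 160 (1.55%). Pairs covered 9.79 Mb in WT and 11 Mb in WT + 2HG, so the 1.20 Mb added at kept peaks was nearly as much as the 1.27 Mb in gained peaks. The share of wider pairs stayed between 70.1 and 72.2% under the 6 alternatives that act on it. The median summit −log10 p of kept peaks was 10.2 in WT and 16.7 in WT + 2HG, and its part in the widening was not tested.

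As a ratio, the widening was smaller at strong peaks. With pairs grouped by the mean of their 2 percentiles in steps of 10, the median ratio was 1.12 up to 10, 1.25 from 10 to 20, 1.11 from 40 to 50 and 1.05 above 90. Between 60.4 and 74.1% of pairs were wider in each step. At promoters of coding genes on 1 strand (8547 pairs), the upstream edge moved out by a median 42 bp (interquartile range 0 to 128 bp) and the downstream edge, inside the gene, by 24 bp (−42.5 to 107 bp). The upstream edge moved out at 74.8% of these pairs and the downstream edge at 60.3%. The typical WT peak ran from 194 bp upstream to 640 bp downstream of the start site nearest its summit, and the WT + 2HG peak from 286 to 673 bp. The edges differed more at strong than at weak peaks. The medians were 40 and 16 bp at a mean percentile of 50 to 75 and 41 and 18 bp above 75, and up to 25 they were 46 bp at both edges.

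**Figure D2:**
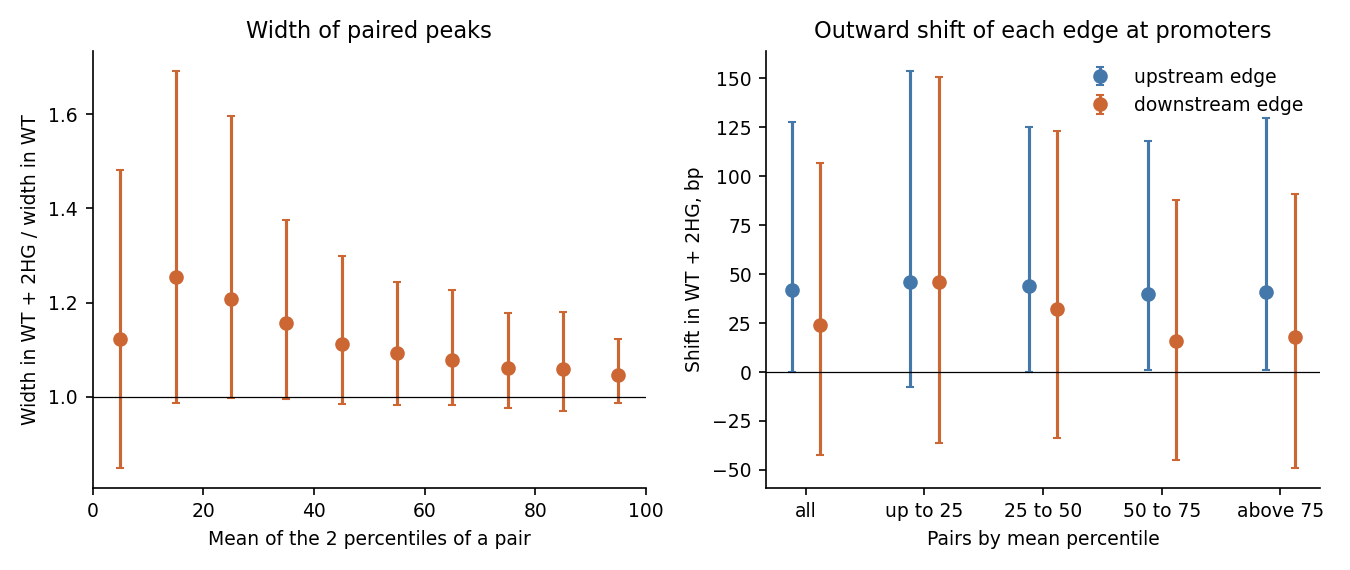
Left, ratio of the width in WT + 2HG to that in WT (y axis) by the mean percentile of a pair (x axis, steps of 10 percentile points). Right, outward shift in bp of the upstream (blue) and downstream (orange) edge in WT + 2HG at promoters of coding genes on 1 strand, for all pairs and by mean percentile. Points are medians and bars interquartile ranges over pairs; the upstream medians stay between 40 and 46 bp while the downstream ones fall from 46 to between 16 and 18 bp at stronger peaks.

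Among strong promoters, with both percentiles at 50 or above (5037 pairs), the widest ratios included the following. Ankrd13b grew from 569 to 1468 bp, a ratio of 2.58. Dynll1, a dynein light chain, grew from 669 to 1587 bp. Apeh, the shared promoter of Fastk and Tmub1, and Rnf44 had ratios of 2.28 to 2.32. In Apeh the percentile was lower in the wider peak, at 52.2 against 59.5.

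The narrowest ratios lay at Bst2, Bax, Klhl28 with Togaram1, Eepd1, Gpatch11 with Heatr5b, and Rpsa. Bst2, which encodes the antiviral protein tetherin, narrowed from 1695 to 834 bp, and its CLPP-KO peak had 1906 bp. Bax, the pro-apoptotic BCL2 family member, narrowed from 1573 to 784 bp, with 900 bp in CLPP-KO. The rank of Bax hardly moved, from 75.3 to 76.1, whereas that of Bst2 went from 70.0 to 54.1.

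Peaks that stood apart in WT were also joined in WT + 2HG. There were 617 WT + 2HG peaks that spanned 2 or more WT peaks, 1245 WT peaks in all, against 112 WT peaks that were split over 2 or more WT + 2HG peaks. The median gap closed was 167 bp. The longest chains, named after their values were seen, were 4 WT peaks each at Irs1 and Smad6. Irs1, the insulin receptor substrate, had 1 peak of 5489 bp in WT + 2HG (chr1:82264569-82270057). The 4 WT peaks there summed to 5330 bp, without the gaps of 138 to 278 bp between them. Smad6, an inhibitor of BMP signalling, had 1 of 3685 bp in place of 3098 bp. Nr2f2, which encodes the nuclear receptor COUP-TFII, had 1 of 4990 bp over 3 WT peaks. Pik3r1, a regulatory subunit of the insulin-responsive PI3 kinase, also had 3 WT peaks joined, as did Brd2, Trps1, Arid2, Phf21a, Pfn1 with Eno3 and Cramp1 with Ift140. In CLPP-KO the same stretches held 1 or 2 peaks.

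In rank, 1320 pairs were at least 20 percentile points higher in WT + 2HG (12.7%) and 183 at least 20 lower (1.77%). The median change was 4.07 points (95% interval of the median 3.78 to 4.39). Gained peaks fill the bottom of the WT + 2HG list and so lift the percentile of every kept peak. When only pairs were ranked against each other the median change was −0.18, and 733 rose against 677 that fell by 20 or more. The share of rises among these larger changes was then 52.0%, compared with 87.8% in the whole lists. Single genes are given below on the whole-list scale unless stated otherwise, and the balance of rises and falls is not taken from it. The size of a change depends on the scale too. Pigs changed by −37.8 points in the whole lists and by −47.9 among pairs only. Acaa2 changed by 39.1 and 26.6, whereas Foxf2 hardly differed, at 64.7 and 65.7.

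**Figure D3:**
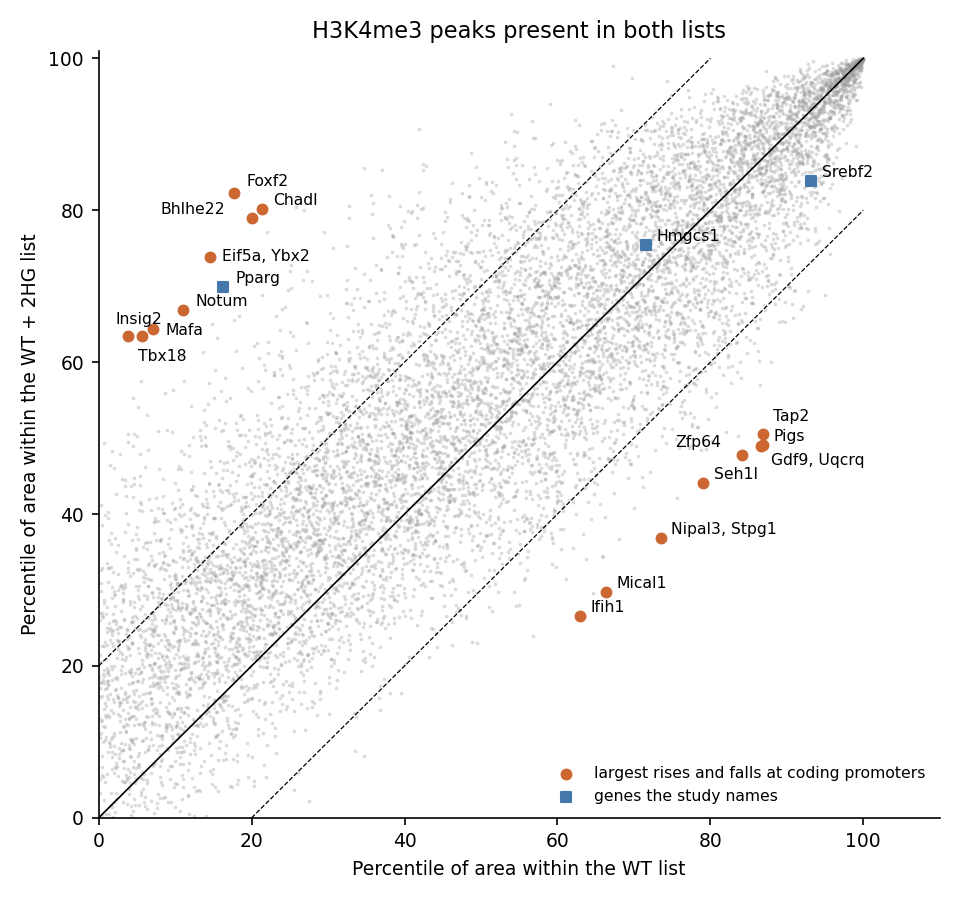
Percentile of area within the WT list (x axis) and the WT + 2HG list (y axis) for the 10354 pairs (grey). Orange points are the 8 largest rises and 8 largest falls at protein-coding promoters, blue squares are 3 genes the study names, the solid line marks equal ranks and the dashed lines a change of 20 points. Foxf2 went from 17.7 to 82.3 and Pigs from 86.9 to 49.1.

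The 8 largest rises reached percentiles of 63.4 to 82.3 in WT + 2HG. Foxf2, a forkhead factor of mesenchyme, had a 467 bp peak at percentile 17.7 in WT and an 1851 bp peak at 82.3 in WT + 2HG (chr13:31809407-31811257). In CLPP-KO it had 2124 bp at 89.4. Its summit lay 538 bp into the gene, in an exon. Tbx18, a T-box factor, went from 516 bp at 5.7 to 1773 bp at 63.4, and CLPP-KO had 2053 bp at 98.5. Mafa, a basic leucine zipper factor, went from 207 bp at 7.1 to 2399 bp at 64.3, a ratio of 11.6. Bhlhe22 went from 20.1 to 79.0, and Notum, a secreted inhibitor of Wnt ligands, by 55.8 points to 66.8. These 5 peaks were wider in WT + 2HG, by ratios of 1.63 to 11.6.

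Insig2 had the second largest rise. It encodes the endoplasmic reticulum protein that retains the SCAP–SREBP complex when sterols are plentiful. Its peak went from 790 to 1112 bp, and its percentile from 3.8 to 63.4, with 48.0 in CLPP-KO (chr1:121254948-121256059). Its summit −log10 p was 3.56 in WT and 14.3 in WT + 2HG. Chadl and the promoter shared by Eif5a and Ybx2 completed the 8, at 80.2 and 73.9 in WT + 2HG.

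The 8 largest falls were at genes of varied function, with width ratios of 0.601 to 1.03. Pigs, a subunit of the GPI transamidase, fell from 86.9 to 49.1 while its peak went from 927 to 914 bp. CLPP-KO stood between, at 72.8. Its summit −log10 p was 17.9 in WT and 14.7 in WT + 2HG, against the opposite shift in the list as a whole. Summit −log10 p was lower in WT + 2HG at 7 of the 8. The area is itself built from −log10 p and these pairs were chosen by its rank, so this is no separate support. The promoter shared by Uqcrq, a subunit of respiratory complex III, and Gdf9 fell from 86.6 to 48.9. Ifih1, the cytosolic sensor of double-stranded RNA also called MDA5, fell from 63.0 to 26.6 and from 954 to 573 bp. Tap2, a subunit of the peptide transporter for antigen presentation, fell from 86.8 to 50.6. Seh1l, of the nuclear pore, fell from 79.1 to 44.1. The rest were Zfp64, from 84.1 to 47.7, Mical1, from 66.3 to 29.7, and Nipal3 with Stpg1, from 73.5 to 36.8. At all 8 the CLPP-KO percentile lay between those of WT and WT + 2HG, from 42.1 at Ifih1 to 78.0 at Tap2. The 8 pairs were chosen for the largest falls from WT to WT + 2HG. A CLPP-KO percentile in between can follow from that choice and is no separate support. How often this held over all pairs was not tested.

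CpG density rose with the change in rank at peaks of like strength. Density was counted in the 500 bp around the WT summit, so that it did not depend on peak width. Among pairs with a mean percentile of 25 to 50, the median was 6.6 CpG per 100 bp where the rank fell by 20 or more (47 pairs), 7.2 where it changed by less than 10 and 8.6 where it rose by 20 or more (575 pairs). From 50 to 75 the medians were 8.0, 8.6 and 10.1. Spearman's rho between density and change ran from 0.20 to 0.28 over the 4 ranges of strength, and from 0.21 to 0.24 with ranks among pairs only. Over all 10354 pairs, without regard to strength, it was 0.06, or 0.19 with ranks among pairs only. These are correlations across sites of the same 2 lists, which share libraries and are not replicates, and the interquartile ranges of the classes overlapped.

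**Figure D4:**
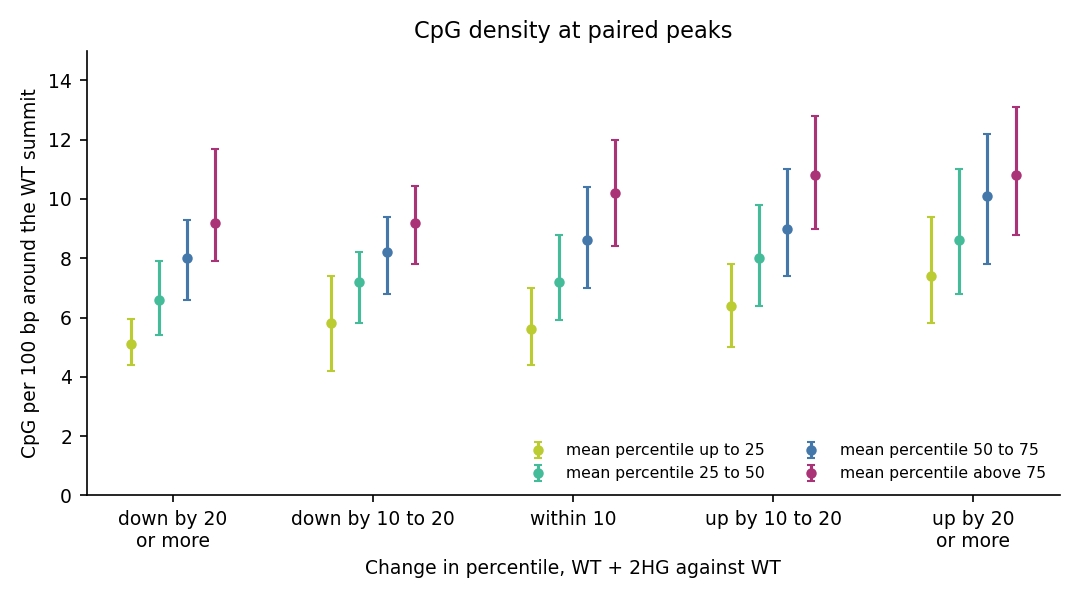
CpG per 100 bp in the 500 bp around the WT summit (y axis) by change in percentile (x axis), for pairs in 4 ranges of mean percentile (colours). Points are medians and bars interquartile ranges over pairs. Within each colour the pairs that rose by 20 or more have the highest median or share it, 7.4, 8.6, 10.1 and 10.8 from weak to strong.

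Developmental regulators gained promoter peaks in larger shares than coding genes as a whole. Of the 39 Hox genes, which set position along the body axis, 21 had a WT peak and 11 of the other 18 gained one (61.1%, 95% Wilson interval 38.6 to 79.7%), beside 11.7% over all coding genes. Hoxb2 stood at percentile 38.2 and Hoxa10 at 33.5 in WT + 2HG, and both ranked above 80 in CLPP-KO, at 80.7 and 86.4. Hoxd3 and Hoxd4 share their strongest gained peak, at 16.3. Of the 28 genes of the Nkx, Pax, Lhx, Irx, Dlx, Msx and sine oculis homeobox families without a WT peak, factors of organ formation, 15 gained one (53.6%). They included Msx3 at 34.7, Pax6 at 34.2, Nkx2-4 at 29.5 and Irx2 at 22.6. Wnt and Frizzled genes, the ligands and receptors of Wnt signalling, gained 6 of 7, all ligands (Wnt1, Wnt3, Wnt3a, Wnt7a, Wnt8b and Wnt9b), at 5.4 to 12.7.

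Forkhead genes gained 6 of 16 (37.5%, 18.5 to 61.4%), beside 11.7% over all coding genes, among them Foxe1 at 28.3 and Foxa1 at 24.6. Sox, Gata and T-box genes gained 7 of 17 (41.2%, 21.6 to 64.0%), with Tbx21 at 38.2, Sox18 at 22.9 and Gata4 at 20.8. Fgf, Bmp and Gdf ligands gained 5 of 22, led by Bmp3 at 28.9. The interval of their share (22.7%, 10.1 to 43.4%) includes the 11.7% of all coding genes. In the 6 families together 50 of 108 genes gained a peak (46.3%, 37.2 to 55.7%) and none lost one. All 50 also had a CLPP-KO peak. The share of all coding genes is a broad background that includes genes of no CpG-rich promoter, and no matched background was used.

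Among members of these families with a pair, 29 of 122 rose by 20 points or more (23.8%) and 1 fell, beside 11.6% and 1.88% over all coding genes with a pair. With ranks among pairs only, 19 rose and 4 fell, beside 683 and 706 of all 10108 coding genes with a pair. Sox, Gata and T-box genes had the highest median change of the 28 gene lists other than markers, 17.9 points, or 9.30 with ranks among pairs only, against 3.22 and −0.32 for all coding genes. Besides Tbx18, Sox21 rose by 45.0, Eomes by 29.6, Sox8 by 28.9 and Tbx15 by 27.8. Foxl2 rose by 43.7 and Foxd1 by 32.7, Bmp6 by 47.6 and Bmp8a by 40.2, and Fzd10 by 46.8. In Hox genes with a pair the median was 4.13 in the whole lists and −3.17 among pairs only, so their kept peaks have no direction that holds under both.

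Potassium channel genes also gained a larger share than coding genes as a whole. Of 63 without a WT peak, 22 gained one (34.9%, 24.3 to 47.2%), beside 11.7% over all coding genes. Of 25 with a pair, 8 rose by 20 or more (32%) and none fell, beside 11.6% and 1.88% over all coding genes with a pair. Ranked among pairs only, 7 rose and 1 fell, beside 683 and 706 of all 10108 coding genes with a pair. Kcnc4, Kcnq3 at 38.1 and Kcns3 at 32.1 led the gains. Kcnj4 rose from 29.5 to 77.1 at 1212 and 1143 bp, and Kcng3 rose by 39.0. Of collagen genes, 9 of 27 gained a peak (33.3%), beside 11.7% over all coding genes. Col18a1 stood at 34.7, Col16a1 at 31.9 and Col15a1 at 21.0, and Col14a1 lost its peak.

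Genes of fat storage and breakdown gained peaks. Of the 20 lipid uptake, droplet and lipolysis genes without a WT peak, 8 gained one (40%, 95% Wilson interval 21.9 to 61.3%). The share over all coding genes was 11.7%. Angptl4, a secreted inhibitor of lipoprotein lipase, stood at 37.3, and Lpl, the lipase itself, at 32.2 with 1064 bp (chr8:69333197-69334260). Pnpla3 stood at 27.5, Lipe, hormone-sensitive lipase, at 22.2, Cidea at 20.9 and Plin1, the coat protein of the adipocyte lipid droplet, at 20.7. Cav1 and G0s2, an inhibitor of the triglyceride lipase, made up the 8. Lipe had no peak in CLPP-KO, while the other 7 did. Members that already had a WT peak changed little. None of 20 with a pair moved by 20 points in the whole lists, whereas Fitm2, which acts in lipid droplet formation, fell by 22.2 with ranks among pairs only. The median change was 0.76, or −5.49 among pairs only. The gained peaks of Lpl, Lipe and Plin1 had their summits 750, 913 and 1718 bp inside the gene.

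Pparg, the nuclear receptor that drives adipocyte differentiation, had the largest rise of the adipogenic factors. Its promoter peak was 573 bp at percentile 16.2 in WT, 1549 bp at 69.9 in WT + 2HG and, as the stronger of 2 peaks, 713 bp at 35.8 in CLPP-KO. It ran over chr6:115337773-115338345 in WT and chr6:115337727-115339275 in WT + 2HG, on the plus strand, so most of the added width lay inside the gene. Pparg was the only 1 of the 33 adipogenic factors with a pair that moved by 20 points. Their median change was 0.09, and 39 of 42 had a WT peak, at a median percentile of 89.9. A peak that near the top of its list cannot rise by 20 points, so many members could not have counted as rises. Cebpa stood at 94.8 in WT and 93.9 in WT + 2HG. Nr1h3, the oxysterol receptor LXRα, gained a weak peak at 5.5.

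Thermogenic genes gained 6 of 21 (28.6%, 13.8 to 50.0%), beside 11.7% over all coding genes. The 6 were Gatm, Cidea, Kcnk3, Alpl, Otop1 and Esrrg, at 23.9 down to 5.1. Gatm and Alpl belong to the creatine cycle and Kcnk3 is a potassium channel of brown fat. Nrg4, a brown fat secreted factor, rose from 33.9 to 65.0, and Letmd1 went from 77.1 to 59.3. Of white fat genes, Nnat gained a peak, 1 of 13, and Rbp4 rose from 12.3 to 37.3 and Mest from 24.1 to 46.0, neither by 20 with ranks among pairs only. The gained share of white fat genes was below that of thermogenic genes, and their intervals overlapped (1.37 to 33.3% for white).

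The regulators of adipogenesis and sterol synthesis that the study names did not move together in rank. From read density the study reports more H3K4me3 at the promoters of Srebf1, Srebf2 and Cebpb. A rank within a list is an unlike measure and cannot show whether the mark itself rose or fell. Summit −log10 p was 18.2 in WT and 19.5 in WT + 2HG at Srebf2, and 9.34 and 6.50 at the stronger WT peak of Srebf1. Srebf2, which encodes SREBP2, went from 93.2 to 83.8 and from 1292 to 1145 bp, with 91.6 in CLPP-KO. Srebf1 had 2 WT peaks, at 20.0 and 30.8, and 3 WT + 2HG peaks, at 8.0, 20.7 and 19.5. The stronger WT peak widened from 518 to 974 bp, and the additional one was 503 bp wide. Cebpb had 1 WT peak of 2693 bp at 97.0, which WT + 2HG split into 2051 bp at 96.7 and 1072 bp at 28.9, with a like split in CLPP-KO. Hmgcs1, a synthase early in cholesterol synthesis, went from 71.5 to 75.5.

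In the cholesterol list 5 of 35 genes with a pair rose by 20 or more (14.3%, near the 11.6% of all coding genes) and Sc5d fell, from 85.7 to 62.5. With ranks among pairs only 3 rose and 3 fell. Beside Insig2, Mbtps1, the protease that cuts SREBP, rose by 36.1 with a width ratio of 2.45, and Scap, the SREBP escort, rose by 28.1. Dhcr7 and Idi1 rose by 20.2 and 21.4, and by 7.37 and 10.4 with ranks among pairs only. Of 7 without a WT peak 4 gained one (57.1%), beside 11.7% over all coding genes. Among them were Gramd1b at 40.3, Hsd17b7 at 15.2 and Abcg1 at 11.7, and Pmvk lost a peak at percentile 1.2. Of fatty acid synthesis genes 5 of 11 gained one (45.5%, beside the same 11.7%). Acacb, the mitochondrial acetyl-CoA carboxylase, stood at 34.2 and Scd1, the desaturase, at 8.2. Agpat2, an acyltransferase of triglyceride synthesis, rose by 28.3.

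Fatty acid oxidation genes had a median change of 10.3 points, or 3.06 with ranks among pairs only. Of 34 with a pair, 6 rose by 20 or more (17.6%), beside 11.6% over all coding genes. Of 11 without a WT peak, 4 gained one (36.4%), beside 11.7% over all coding genes. Acaa2, the mitochondrial thiolase, went from a 168 bp peak at 0.8 to 615 bp at 39.9. Pdk4, the kinase that inhibits pyruvate dehydrogenase, rose by 24.8, Ppara, the lipid-sensing receptor, by 22.9 and Cpt2 by 20.3. With ranks among pairs only 4 rose and 4 fell. Hadha went the other way, from 73.1 to 53.9.

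The genes whose products make, remove or respond to 2HG changed in no common direction. Of the 2-hydroxyglutarate list, 19 of 25 had a WT peak, none of 18 with a pair rose by 20, and Gpt2, an alanine transaminase, fell from 85.2 to 62.9. D2hgdh, the d-2HG dehydrogenase, had no promoter peak in either list. Among H3K4 methyltransferase genes 4 of 23 with a pair rose (17.4%, beside 11.6% of all coding genes), or 3 with ranks among pairs only, and none fell on either scale. The 4 were Smyd2 by 31.2, Wdr82 from 54.0 to 79.1, Bptf by 20.8 and Pagr1a by 20.3. Of these Wdr82 is a SET1 complex subunit and Bptf a reader of the mark. Among Jumonji and LSD1 demethylases 3 of 25 rose, a share near that of all coding genes, Kdm8 by 23.4, Kdm4c by 22.8 and Jarid2 by 22.3. With ranks among pairs only 1 rose and 1 fell, and Kdm8 changed by 9.79. Jmjd8 counted as lost only because its strong peak, at 64.2 in WT, no longer reached within 2000 bp of its start site. Of the other 2-oxoglutarate dioxygenases 2 of 5 gained a peak (40%), beside 11.7% over all coding genes. Of 25 with a pair 3 rose, again near the share of all coding genes, while 2 rose and 4 fell with ranks among pairs only. Tet2, which oxidizes 5-methylcytosine, rose from 49.1 to 80.1 and from 1732 to 2168 bp.

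Genes of protein synthesis and respiration were nearly all marked already. Of 81 cytosolic ribosomal protein genes 78 had a peak in both lists and none was gained or lost. Among 73 with a pair 6 fell by 20 or more (8.22%), beside 1.88% over all coding genes, and 1 rose. The median change was −3.82, and −8.14 with ranks among pairs only. Rpl29 fell most, from 80.2 to 49.7. Oxidative phosphorylation genes had 6 rises and 2 falls among 65 (9.23% and 3.08%), near the 11.6% and 1.88% of all coding genes with a pair. Ranked among pairs only they had 3 and 6, beside 683 and 706 of all 10108 coding genes with a pair. Uqcrq fell as given above, Atp5f1e fell by 22.1, and Atp5mk rose from 34.2 to 68.4. Cox6b1 and Ndufa9 lost weak peaks at 7.8 and 2.4. Mitochondrial ribosomal protein genes had 3 rises and 2 falls among 66 (4.55% and 3.03%), beside the same 11.6% and 1.88%. Ranked among pairs only they had 1 and 7.

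Interferon-stimulated and nucleic acid sensing genes were listed only after some of them had been seen among the leading genes. Ifih1 and Tap2 were among the largest falls, Bst2 among the narrowest ratios and Xaf1 among the leading lost peaks. The count of this list therefore describes and does not test. Of 30 with a pair, 4 fell by 20 or more (13.3%), beside 1.88% over all coding genes. These were Ifih1, Tap2, Samhd1, which cleaves deoxynucleotides and fell by 21.6, and Parp14, which fell by 20.2. Stat2 rose from 20.3 to 47.2. Irgm1 and Xaf1 lost their peaks, while Eif2ak2 at 25.3, Usp18 at 23.1, Herc6, Trim21, Igtp and Rigi gained one. These gains were 6 of 34 without a WT peak (17.6%), beside 11.7% over all coding genes. With ranks among pairs only, none rose and 8 fell.

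The other lists held few changes. Of nuclear envelope and lamina genes, Syne1 at 22.2, Nup210 at 17.1 and Sun3 at 0.8 gained a peak. These were 3 of 5 (60%), beside 11.7% over all coding genes. Nrm, which encodes nurim of the inner nuclear membrane, rose from 1.3 to 40.3, and Sun1, of the complex that links the lamina to the cytoskeleton, fell by 26.2 points to 68.8. Of actomyosin, adhesion and mechanosensing genes 51 of 58 had a peak in both lists. Of 47 with a pair 2 fell (4.26%) and 1 rose (2.13%) by 20 or more, beside 1.88% and 11.6% over all coding genes. A peak of Myl6, a myosin light chain, fell by 24.7, and Rhoc rose by 21.2. In the integrated stress response list Chac1 rose from 41.1 to 69.8 and Nars1 fell from 71.2 to 43.6. Eif2ak2 and Nupr1 gained peaks, Cth lost one at 0.7, and Atf4 had no promoter peak in either list. Of serine and one-carbon genes Gldc, of the glycine cleavage system, went from 217 bp at 3.6 to 751 bp at 40.2. Shmt2, the mitochondrial hydroxymethyltransferase, gained a CpG-poor peak at 13.3 that CLPP-KO lacked, and Mthfs and Psph fell. Of cell-cycle brakes and senescence genes 3 of 19 rose by 20 or more (15.8%), beside 11.6% over all coding genes. With ranks among pairs only 2 rose and 1 fell. Igfbp3 rose most, from 10.4 to 43.1.

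**Figure D5:**
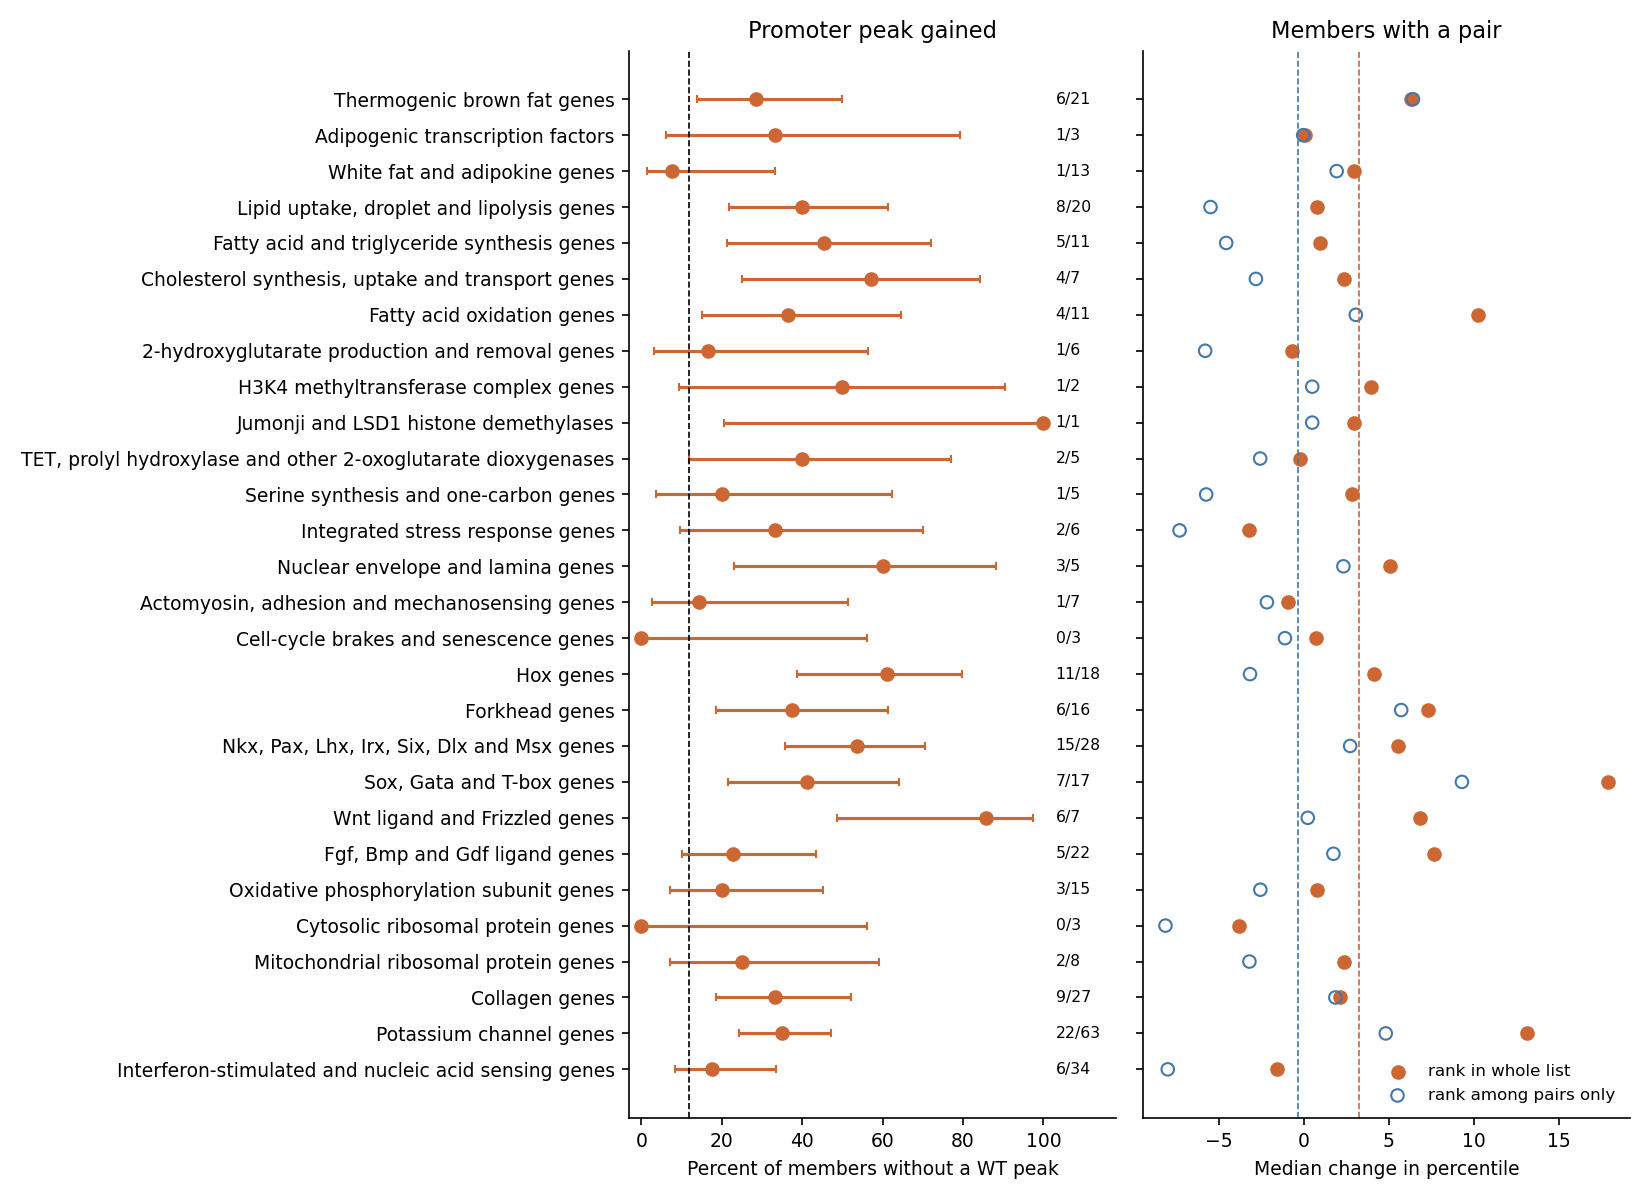
For 28 gene lists (rows), left, the percent of members without a WT promoter peak that had one in WT + 2HG (orange points, bars 95% Wilson intervals, counts at the right; dashed line, 11.7% over all coding genes). Right, median change in percentile of members with a pair, ranked in the whole lists (filled) or among pairs only (open), with dashed lines at the medians of all coding genes, 3.22 and −0.32. Wnt and Frizzled, Hox, and Nkx, Pax and related homeobox genes have gained shares of 85.7, 61.1 and 53.6%, and several lists move to the other side of 0 between the 2 rankings.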

How the data were processed

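H3K4me3 was mapped by ChIP–seq in WT and WT + 2HG mBA cells, 4 samples each with 1 input per condition. Per the study's methods and the submitters' processing notes, reads were trimmed with fastp 0.23.4 and mapped to GRCm39 (mm39) with BWA 0.7.17, and Genrich 0.6.1 called 1 list per condition by combining the p-values of the 4 replicates. In the deposited lists the authors give each peak a signal, the area under the curve of −log10 p, and a summit −log10 p-value. Neither is scaled between lists, and the lists hold no read counts per sample, so areas were ranked within a list. The lists also hold peaks on other sequences, which were left out.

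Start sites came from GENCODE M39 (20621 protein-coding genes on chromosomes 1 to 19). A promoter was the 2000 bp on either side of a start site. A gene's pair was its promoter pair with the highest WT percentile. Groups came from the labels. Since each condition is 1 list, no test was made. Shares have 95% Wilson intervals, and medians have binomial order-statistic intervals, over peaks or genes.

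The peaks compared, gene lists and named-gene rule were chosen with earlier results of these data known. Genes named were the 10 gained and 10 lost with the highest percentile, the 8 largest rises and falls of rank, the 6 largest and smallest width ratios at percentile 50 or above, up to 6 members gained or lost and the 2 extreme members of each list, and genes the study names. Further list members that moved by 20 points, and peaks joining several WT peaks, were named after their values were seen. Alternatives changed the overlap, merging, p threshold, list size, sequences, pairing, ranking and window.

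Simulated lists with planted changes served to check the scripts, which recovered 7 of 7 quantities. On the real lists 6 of 6 overlap counts matched bedtools 2.31.1. Computation used pandas 2.3.3, scipy 1.17.1, numpy 2.4.6 and, for plots, matplotlib 3.10.9, under Python 3.11.15. The list of interferon-stimulated genes was added after values were seen. Some results are not reported here.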

Additional observations from a re-analysis of the deposited data

Results flagged for a closer look

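Peaks on the sex chromosomes lay outside the comparison of chromosomes 1 to 19 and were more numerous after treatment. The X chromosome held 276 WT and 383 WT + 2HG peaks, of which 125 were gained, and 10 WT peaks there were lost. The Y chromosome held 1 WT peak and 2 WT + 2HG peaks. Contigs outside the chromosomes went the other way, with 77 WT and 6 WT + 2HG peaks, 74 lost and 3 gained. These are counts of called peaks, with no sample values behind them.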

How the results depend on the processing

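No paired analysis was possible because each condition was deposited as 1 list called on its 4 replicates together, which also left no replicate that could be dropped in turn. Of 60 values under 12 settings, 33 stayed within 1.5 times the count or within the interval of the share or median, and 27 did not. A change of direction was defined only for the share of wider pairs and the median width ratio, and neither changed direction. Gains exceeded losses under the 5 settings that act on them, but in equal-sized lists only joined or split peaks can make these counts differ. Rises exceeded falls under the 9 settings that act on them, with 666 against 634 in equal-sized lists. With ranks among pairs only the mean change is fixed by construction, so 733 against 677 there is no support for an excess of rises. Coding genes ranked in that way had 683 rises and 706 falls.

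Requiring a reciprocal overlap of 50% gave 1747 lost peaks and a promoter share of gained peaks of 87.0%. It does not apply to the counts of genes. Merging peaks within 1000 bp gave a promoter share of 80.3%. Keeping peaks with a summit −log10 p of at least 5 gave 63 lost peaks, 27 lost genes, a promoter share of 91.4% and a median width ratio of 1.09. Equal-sized lists gave 1171 gained and 610 lost peaks, 666 pairs up and 634 down, a promoter share of 89.7%, and 710 genes gained and 252 lost. Using every overlapping pair gave 72.2% of pairs wider, a median ratio of 1.12, 2108 pairs up and 279 down. Ranking by summit −log10 p gave 2233 up and 747 down, by area per bp 2266 and 702, and among pairs only 733 and 677. Windows of 1000 and 3000 bp gave promoter shares of 77.9 and 86.5%, and coding start sites only 71.3%. In ranks among pairs only, weak WT + 2HG peaks no longer lift the rest by construction. In equal-sized lists, where 1171 gained and 610 lost peaks remained, this lift is smaller but not removed. Elsewhere the cause was not tested.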
